A study of Mus musculus with 16 samples.

Results

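The mitochondrial carrier genes of the Slc25a family and the uncoupling proteins were described here in liver RNA, measured on Affymetrix Mouse Gene 1.0 ST arrays. The members were the genes whose annotated symbol begins with Slc25a, together with Ucp1, Ucp2 and Ucp3, taken from probe sets with a single symbol and represented by the brightest probe set where a gene had several. This gave 48 genes of 19938 named genes. Ucp2 was not analysed here. The livers came from 16 male mice aged 4 months, with 1 array per liver and 4 arrays in each of 4 groups. Mutant mice were Mut -/-;TgINS-MCK-Mut and were killed after 8 to 12 h of fasting or unfasted. Heterozygous mice were Mut +/-;TgINS-MCK-Mut and were killed after 12 h of fasting or unfasted. Mut, now named Mmut, encodes methylmalonyl-CoA mutase, the mitochondrial enzyme that is deficient in isolated methylmalonic acidemia, and the title of the series refers to hormesis in that disease. All mice, the heterozygotes included, carried the Mut transgene under the muscle creatine kinase promoter, so the mutants are a model in which muscle retains the enzyme. Mice without the transgene and wild-type mice were not analysed here. The fast was not of matched length in the 2 genotypes, and this touches every comparison with fasted mutants.

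The inner mitochondrial membrane is impermeable to most metabolites, and the SLC25 carriers are the nuclear-encoded proteins that exchange adenine nucleotides, phosphate, carboxylates, amino acids, acylcarnitines and cofactors across it. In liver these exchanges feed the urea cycle with ornithine, move citrate out for fatty acid synthesis, carry reducing equivalents in the malate-aspartate shuttle and bring acylcarnitines in for oxidation. Uncoupling proteins belong to the same family. Ucp1 is the proton leak of brown fat, while Ucp3 is best known from muscle and brown fat.

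The targeted gene followed the labels. Mmut read 7.85 to 8.33 on the 8 mutant arrays and 9.66 to 10.10 on the 8 heterozygous arrays, on the log2 scale of the deposited values. All 5 measured hepatocyte markers were tested and none was called in any of the 5 contrasts. Other cell types differed with genotype: of 10 macrophage markers 8 were higher in fasted mutants and 0 passed in unfasted mutants, of 6 endothelial markers 4 were higher in each feeding state, and of 6 stellate cell markers 2 were higher in the fasted and 5 in the unfasted state. Of all genes, 8.62% were called higher and 5.01% lower in fasted mutants than in fasted heterozygotes, and 4.25% higher in unfasted mutants. Between fasted and unfasted mutants 2.33% were called higher and 1.02% lower after the fast. The summed level of the macrophage markers ran from 8841 to 11680 in fasted mutants and from 4935 to 7259 in fasted heterozygotes, and from 5822 to 9722 in unfasted mutants and from 4872 to 7380 in unfasted heterozygotes. The endothelial sums ran from 7178 to 8549 in fasted mutants, against 5154 to 6083 in fasted heterozygotes, and from 6582 to 8799 in unfasted mutants, against 5037 to 6494 in unfasted heterozygotes. The stellate sums ran from 7549 to 9046 in fasted mutants, against 6416 to 7236 in fasted heterozygotes, and from 8358 to 10080 in unfasted mutants, against 6598 to 7536 in unfasted heterozygotes. Of the lymphocyte markers 1 of 6 was higher in fasted mutants than in fasted heterozygotes and 1 higher in fasted than in unfasted mutants, of the neutrophil markers 1 of 5 was higher in unfasted mutants than in unfasted heterozygotes and 1 lower in fasted than in unfasted mutants, and of the cholangiocyte markers 1 of 5 was lower in fasted mutants in each of their 2 contrasts. The part of these cells in the carrier values was not tested. In bulk liver RNA a change in the number of cells of a type and a change in RNA per cell cannot be told apart. A pair of arrays stood apart by transcripts of another tissue. On unfasted mutant replicate 1 the pancreatic acinar gene Cpa1 read 12.29, against 6.84 to 7.22 on the 15 other arrays, and on fasted mutant replicate 1 the adipocyte gene Adipoq read 6.43, against 5.60 to 5.81 on the 15 others. The summed level of the 6 acinar markers ran from 836.4 to 16370 in unfasted mutants and from 806.7 to 862.6 in unfasted heterozygotes. Carrier calls that changed without both arrays are named with the counts below, with their values.

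Carriers of several roles differed with genotype and with feeding. A gene is called here at an adjusted p under 0.05 in limma's moderated test over all 19938 genes. Between genotypes, 14 members were called in the fasted state (11 higher and 3 lower in mutants, 29.2% of the members, where 13.6% of all genes were called, 8.62% higher and 5.01% lower). In the unfasted state 10 were called (7 higher and 3 lower in mutants, 20.8%, against 7.94% of all genes, 4.25% higher and 3.69% lower). Fasting was accompanied by 8 called members in mutants (6 higher and 2 lower, 16.7%, against 3.35% of all genes, 2.33% higher and 1.02% lower). In heterozygotes there were 5 (2 higher and 3 lower, 10.4%, against 1.57% of all genes, 0.732% higher and 0.838% lower). The median member difference stayed near 0 in each: 0.05 in the fasted and -0.03 in the unfasted genotype contrast, 0.09 for fasting in mutants and 0.000222 for fasting in heterozygotes, where the medians of all genes were -0.02, 0.01, -0.01 and 0.01. Each contrast held calls in both directions. In all, 24 members were called in at least 1 contrast and 24 in none. The share of all genes called in at least 1 contrast was not counted. In brightness 36 members lay above the median gene, whereas the shares of all genes given here include the dim ones.

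**Figure D1:**
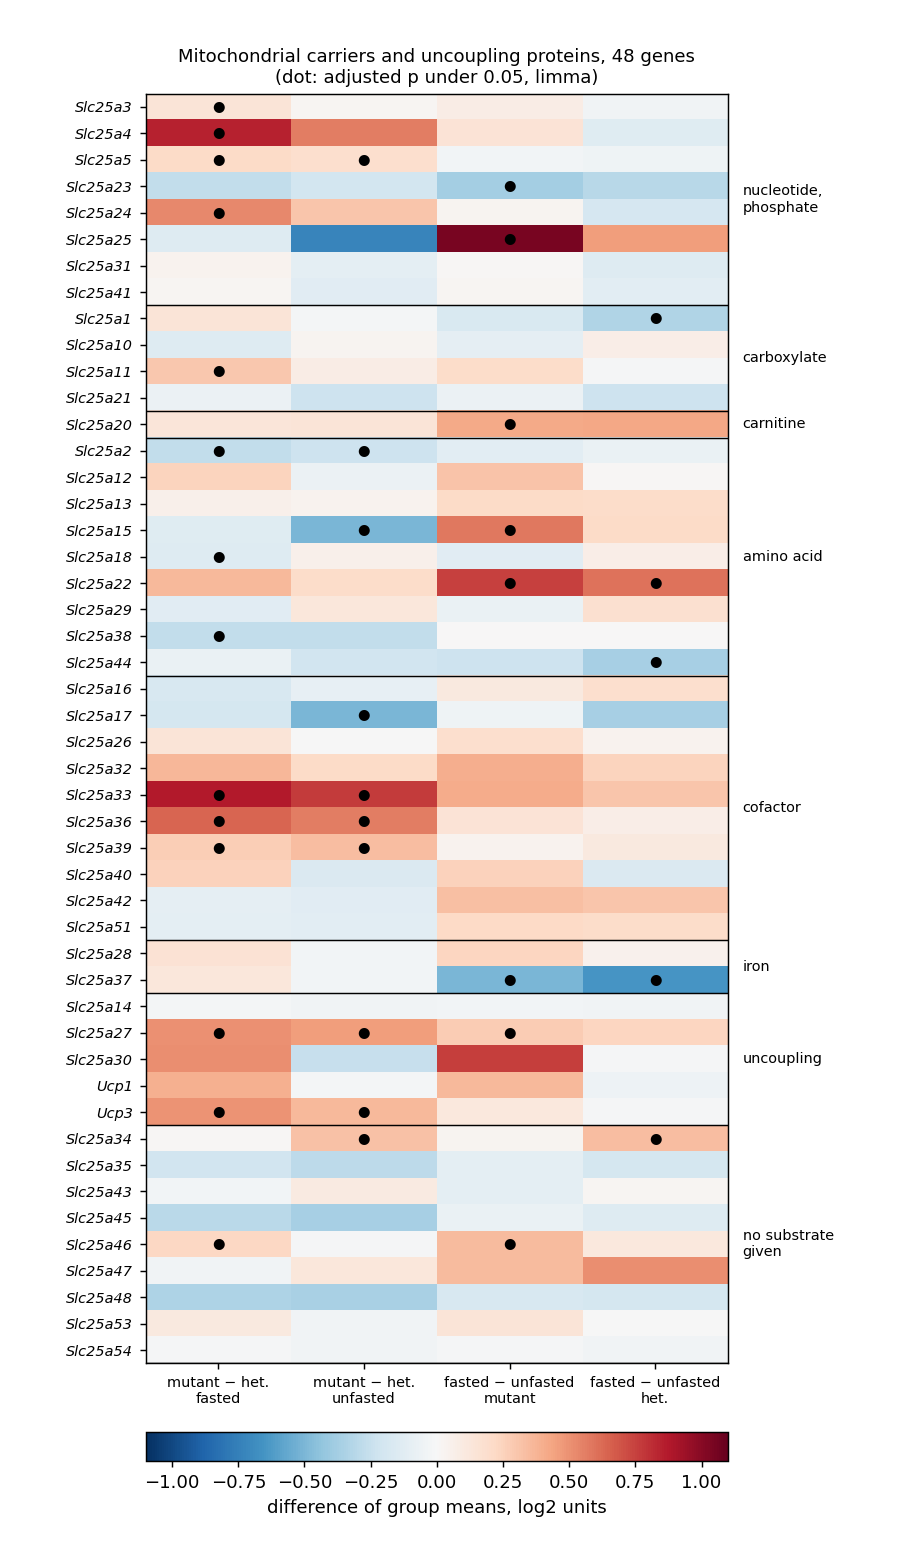
Differences of group means in log2 units for the 48 members (rows, grouped by what they carry) in 4 contrasts (columns), red for higher and blue for lower in the group named first, with a dot where the adjusted p was under 0.05. The dots number 14 and 10 in the fasted and unfasted genotype columns and 8 and 5 in the mutant and heterozygous fasting columns.

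For 3 members the sequence before the annotated start is shown. Slc25a36 and Slc25a25 were picked because they are the 2 members with a full cAMP response element there. Slc25a33 was added as the paralog of Slc25a36. Each run is the 250 bases before a RefSeq start on GRCm38.p6, printed 5′ to 3′ on the gene's strand, which is the minus strand in all 3. Capitals mark the full cAMP response element TGACGTCA, the palindrome bound by CREB and ATF factors, and the E-box CACGTG. Slc25a36 lies at chr9:97111042-97111291, Slc25a25 at chr2:32424067-32424316 (1 of its 3 annotated windows, picked for holding the element) and Slc25a33 at chr4:149774268-149774517.
Slc25a36: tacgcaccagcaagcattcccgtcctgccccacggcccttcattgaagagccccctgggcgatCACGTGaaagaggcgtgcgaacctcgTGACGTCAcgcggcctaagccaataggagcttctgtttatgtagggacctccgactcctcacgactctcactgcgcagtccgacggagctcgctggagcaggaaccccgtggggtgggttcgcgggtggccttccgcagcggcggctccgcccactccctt
Slc25a25: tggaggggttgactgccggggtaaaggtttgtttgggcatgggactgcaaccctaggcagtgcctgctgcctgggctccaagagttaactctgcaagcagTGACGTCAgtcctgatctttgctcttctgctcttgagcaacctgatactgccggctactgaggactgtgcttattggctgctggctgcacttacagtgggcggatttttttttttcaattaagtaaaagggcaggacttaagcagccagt
Slc25a33: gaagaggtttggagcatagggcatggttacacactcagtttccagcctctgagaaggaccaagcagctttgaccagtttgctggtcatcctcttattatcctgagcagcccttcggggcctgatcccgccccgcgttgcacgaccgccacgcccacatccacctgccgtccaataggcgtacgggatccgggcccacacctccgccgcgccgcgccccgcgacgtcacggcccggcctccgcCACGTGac
Promoter windows were found for 38 members, 48 windows in all, and 6 motifs were searched on both strands. TGACGTCA was in 2 of the 48 member windows, those of Slc25a25 and Slc25a36, against 1.55% of 32851 windows of all genes. CACGTG was in 8 member windows of 7 members (Slc25a1, Slc25a13, Slc25a14, Slc25a15, Slc25a31, Slc25a33 and Slc25a36), against 6.02% of all windows. The NRF-1 element was in the windows of Slc25a3 and Slc25a31, against 3.74% of all. The C/EBP-ATF composite TGATGNAA, the nuclear receptor direct repeat of type 1 and the estrogen-related receptor element TCAAGGTCA had 0 matches in member windows and were in 3.45%, 0.0335% and 0.387% of all windows. A match in these letters is a description of the sequence only.

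Among the 10 cofactor and nucleotide carriers, 3 were higher in mutants in both feeding states. Of all genes 8.62% were called higher in the fasted and 4.25% in the unfasted state. The 3 were the pyrimidine nucleotide carriers Slc25a33 and Slc25a36, which bring nucleotides in for mitochondrial DNA and RNA synthesis, and Slc25a39, which imports glutathione. Slc25a33 read 9.49, 9.51, 8.89 and 9.48 in fasted mutants, against 8.30, 8.44, 8.55 and 8.59 in fasted heterozygotes. In the unfasted state it read 9.41, 9.24, 8.39 and 8.69 in mutants, against 8.49, 8.42, 7.87 and 7.88 in heterozygotes. The fasted groups did not overlap, while 1 unfasted mutant lay below 2 unfasted heterozygotes. The difference was 0.87 ± 0.21 (SE) in the fasted state (1.83-fold; limma, adjusted p = 0.013) and 0.77 ± 0.21 in the unfasted state (1.70-fold; limma, adjusted p = 0.036). The unfasted call was lost when any 1 of unfasted mutant replicates 1 and 2 or unfasted heterozygous replicates 3 and 4 was left out (highest adjusted p 0.12). Without unfasted mutant replicate 1 the difference was 0.61 (limma, adjusted p = 0.082).

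Slc25a36 read 9.16, 8.61, 8.55 and 8.46 in fasted mutants, against 8.06, 8.08, 8.22 and 7.87 in fasted heterozygotes, and 8.58, 8.68, 8.68 and 8.24 in unfasted mutants, against 8.16, 8.11, 7.78 and 7.86 in unfasted heterozygotes. The genotypes did not overlap in either state. The difference was 0.64 ± 0.14 in the fasted state (1.56-fold; limma, adjusted p = 0.0088) and 0.56 ± 0.14 in the unfasted state (1.48-fold; limma, adjusted p = 0.024). A second, dimmer probe set gave 0.51 (adjusted p = 0.025) and 0.47 (adjusted p = 0.052). The unfasted call of the brighter probe set ended on leaving out unfasted mutant replicate 2 or 3 or unfasted heterozygous replicate 3 or 4 (highest adjusted p 0.088).

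Slc25a39 was one of the brightest members and its groups were tight. It read 12.38, 12.36, 12.30 and 12.49 in fasted mutants, against 12.18, 12.10, 12.05 and 12.11 in fasted heterozygotes, and 12.31, 12.29, 12.33 and 12.42 in unfasted mutants, against 12.15, 11.99, 11.97 and 11.91 in unfasted heterozygotes. All 8 mutants lay above all 8 heterozygotes. The difference was 0.27 ± 0.06 in the fasted state (limma, adjusted p = 0.0070) and 0.34 ± 0.06 in the unfasted state (limma, adjusted p = 0.0031). Neither call ended on leaving out any 1 array. Its paralog Slc25a40 differed by 0.25 ± 0.10 (adjusted p = 0.10) and -0.16 ± 0.10 (adjusted p = 0.38). The peroxisomal carrier Slc25a17, which brings coenzyme A and related cofactors into peroxisomes, was called lower in unfasted mutants. It read 10.53, 10.50, 10.37 and 10.50 there, against 10.74, 10.98, 11.11 and 11.09 in unfasted heterozygotes, without overlap (-0.51 ± 0.10, limma, adjusted p = 0.0087). In the fasted state the difference was -0.19 ± 0.10 (adjusted p = 0.23). The 6 other cofactor carriers, Slc25a16, Slc25a26, Slc25a32, Slc25a40, Slc25a42 and Slc25a51, passed in no contrast.

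Of the 8 carriers of adenine nucleotides and phosphate, 4 were called higher in fasted mutants and 1 in unfasted mutants, with none called lower. Among all genes 8.62% and 4.25% were called higher. Slc25a23 leaned lower, by -0.27 ± 0.09 in the fasted (limma, adjusted p = 0.059) and -0.20 ± 0.09 in the unfasted state (limma, adjusted p = 0.21). Its unfasted groups did not overlap. The fasted difference was called with array weights, median centring or bright genes only (limma, adjusted p = 0.027, 0.030 and 0.043). Slc25a4 and Slc25a5 are the adenine nucleotide translocases that exchange ATP for ADP, Slc25a4 being known as the form of heart and muscle and Slc25a5 as the more general one. Slc25a4 read 8.95, 8.09, 8.12 and 8.15 in fasted mutants, against 7.44, 7.45, 7.49 and 7.54 in fasted heterozygotes, and 7.95, 8.07, 8.72 and 7.97 in unfasted mutants, against 7.69, 7.77, 7.51 and 7.47 in unfasted heterozygotes. All 8 mutants lay above all 8 heterozygotes, with 1 high mutant in each state. The difference was 0.84 ± 0.18 in the fasted state (1.79-fold; limma, adjusted p = 0.0069) and 0.56 ± 0.18 in the unfasted state (1.48-fold; limma, adjusted p = 0.067). Without fasted mutant replicate 1 the fasted difference was 0.64 and stayed called, and the unfasted one, unchanged in size, passed (adjusted p = 0.014). None of the 6 skeletal muscle markers was called, and their summed level ran from 852.8 to 919.3 in fasted mutants, against 939.2 to 968.1 in fasted heterozygotes, and from 908.5 to 967.2 in unfasted mutants, against 913.9 to 949.9 in unfasted heterozygotes.

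Slc25a5 read 12.49, 12.68, 12.57 and 12.54 in fasted mutants, against 12.31, 12.39, 12.38 and 12.36 in fasted heterozygotes, and 12.68, 12.58, 12.51 and 12.61 in unfasted mutants, against 12.44, 12.48, 12.40 and 12.32 in unfasted heterozygotes. The genotypes did not overlap in either state, although the step was small. The difference was 0.21 ± 0.05 in the fasted state (limma, adjusted p = 0.016) and 0.19 ± 0.05 in the unfasted state (limma, adjusted p = 0.041). Its 3 probe sets gave 0.19 to 0.21 and 0.17 to 0.19. The fasted call ended on leaving out fasted mutant replicate 2 (adjusted p = 0.060), and the unfasted call on leaving out any 1 of 10 arrays (highest adjusted p 0.13), the exceptions being fasted mutant replicates 1, 2 and 3, fasted heterozygous replicate 3, unfasted mutant replicate 3 and unfasted heterozygous replicate 2. How far probe sets of these close paralogs detect one another was not tested.

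The ATP-Mg/phosphate carrier Slc25a24, which sets the adenine nucleotide pool of the matrix, read 7.88, 7.01, 6.997 and 7.12 in fasted mutants, against 6.63, 6.80, 6.68 and 6.80 in fasted heterozygotes (0.53 ± 0.14, limma, adjusted p = 0.026). Fasted mutant replicate 1, the array with adipocyte transcripts, was the high one. Without it the difference was 0.32 and still called (adjusted p = 0.017), whereas it fell out of the calls on leaving out fasted heterozygous replicate 1 (0.49, adjusted p = 0.068) or 3 (0.51, adjusted p = 0.060). The phosphate carrier Slc25a3 read 12.43, 12.43, 12.31 and 12.37 in fasted mutants, against 12.27, 12.23, 12.28 and 12.21 in fasted heterozygotes (0.14 ± 0.05, limma, adjusted p = 0.049). That call ended on leaving out any 1 of 13 arrays, all but fasted mutant replicate 3 and unfasted mutant replicates 1 and 3 (highest adjusted p 0.14). The testis form Slc25a31 and the carrier Slc25a41 were called in no contrast.

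**Figure D2:**
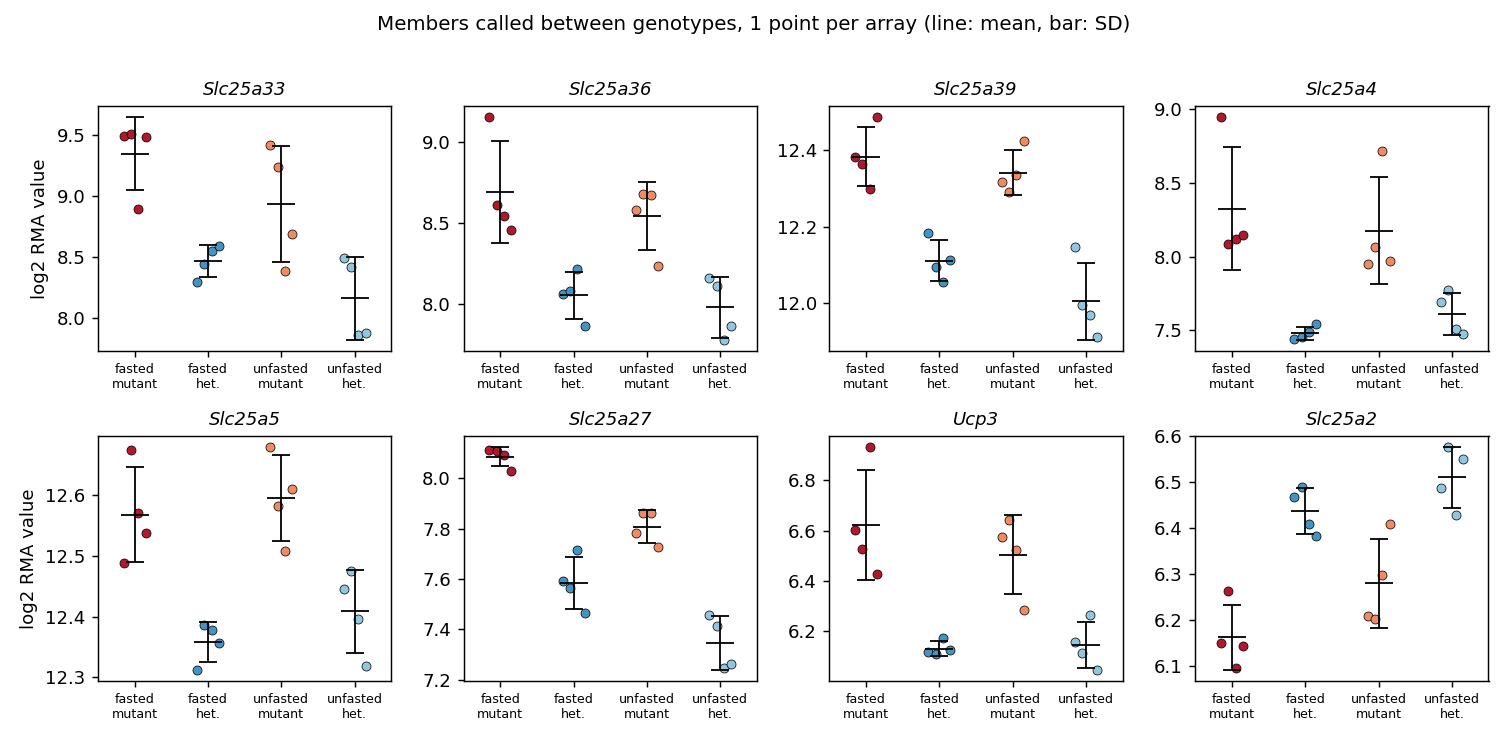
Log2 values of 8 members on each array (points) with the group mean (line) and SD (bar), for fasted mutants, fasted heterozygotes, unfasted mutants and unfasted heterozygotes. The genotypes do not overlap in either feeding state in any panel but that of Slc25a33, where the unfasted groups overlap. Slc25a2 is the member shown that was lower in mutants.

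Among the 5 uncoupling proteins and their relatives, Slc25a27 and Ucp3 were higher in mutants in both states, where 8.62% (fasted) and 4.25% (unfasted) of all genes were called higher. Slc25a27, also known as uncoupling protein 4 and described mainly from brain, read 8.11, 8.11, 8.09 and 8.03 in fasted mutants, against 7.59, 7.57, 7.72 and 7.47 in fasted heterozygotes. In the unfasted state it read 7.78, 7.86, 7.86 and 7.73 in mutants, against 7.46, 7.42, 7.25 and 7.26 in heterozygotes. The 4 groups were ordered without any overlap, from fasted mutants over unfasted mutants and fasted heterozygotes to unfasted heterozygotes. The genotype difference was 0.50 ± 0.06 in the fasted state (1.42-fold; limma, adjusted p = 0.00019) and 0.46 ± 0.06 in the unfasted state (1.38-fold; limma, adjusted p = 0.00054), the smallest adjusted p among the 48 members in each contrast. Slc25a27 lies on chromosome 17, and its position relative to the targeted gene Mmut was not examined. Whether its difference follows from the loss of the enzyme was not tested.

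Ucp3, at the 24.32 percentile of all genes by mean value, read 6.603, 6.53, 6.93 and 6.43 in fasted mutants, against 6.12, 6.11, 6.17 and 6.12 in fasted heterozygotes, and 6.57, 6.64, 6.52 and 6.28 in unfasted mutants, against 6.16, 6.11, 6.26 and 6.05 in unfasted heterozygotes. All 8 mutants lay above all 8 heterozygotes. The difference was 0.49 ± 0.09 in the fasted state (1.41-fold; limma, adjusted p = 0.0033) and 0.36 ± 0.09 in the unfasted state (1.28-fold; limma, adjusted p = 0.025). The unfasted call ended on leaving out any 1 of unfasted mutant replicates 1, 2 and 3 and unfasted heterozygous replicates 2 and 4 (highest adjusted p 0.082). Slc25a30, a kidney-enriched relative, spread most: it read 11.56, 11.01, 11.14 and 11.13 in fasted mutants, against 10.72, 10.65, 10.62 and 10.80 in fasted heterozygotes, and 11.27, 10.66, 10.59 and 9.29 in unfasted mutants, against 10.30, 10.94, 10.55 and 11.04 in unfasted heterozygotes. Its fasted groups did not overlap, and neither genotype contrast passed in the fit of all arrays (0.51 ± 0.29, adjusted p = 0.25, and -0.25 ± 0.29, adjusted p = 0.69, limma). In a fit of only the fasted arrays the fasted difference was called (0.51, limma, adjusted p = 0.014).

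Ucp1 was raised on a single array. It read 7.57, 6.11, 6.07 and 6.09 in fasted mutants, against 5.96, 6.12, 6.06 and 6.13 in fasted heterozygotes, 6.06, 6.15, 6.10 and 6.11 in unfasted mutants and 6.22, 6.05, 6.12 and 6.09 in unfasted heterozygotes. The high array was fasted mutant replicate 1, on which Adipoq, the lipid droplet coat gene Plin1 (8.12, against 7.56 to 7.82 on the 15 others) and Retn (7.94, against 6.75 to 7.38) were also highest. Of the 5 adipose markers measured, Lep was not raised there (6.11). Cidea read 6.54 on that array, 7.96 on fasted heterozygous replicate 4 and 7.06 on unfasted heterozygous replicate 1, where Ucp1 was 6.13 and 6.22. The summed level of the 5 markers ran from 486.6 to 772.5 in fasted mutants, against 515.4 to 733.7 in fasted heterozygotes. The fasted genotype difference of Ucp1 was 0.39 ± 0.23 (limma, adjusted p = 0.27), and 0.02 without that array (adjusted p = 0.79). The fasting difference in mutants was 0.36 ± 0.23 (limma, adjusted p = 0.37), and -0.01 without it (adjusted p = 0.89).

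**Figure D3:**
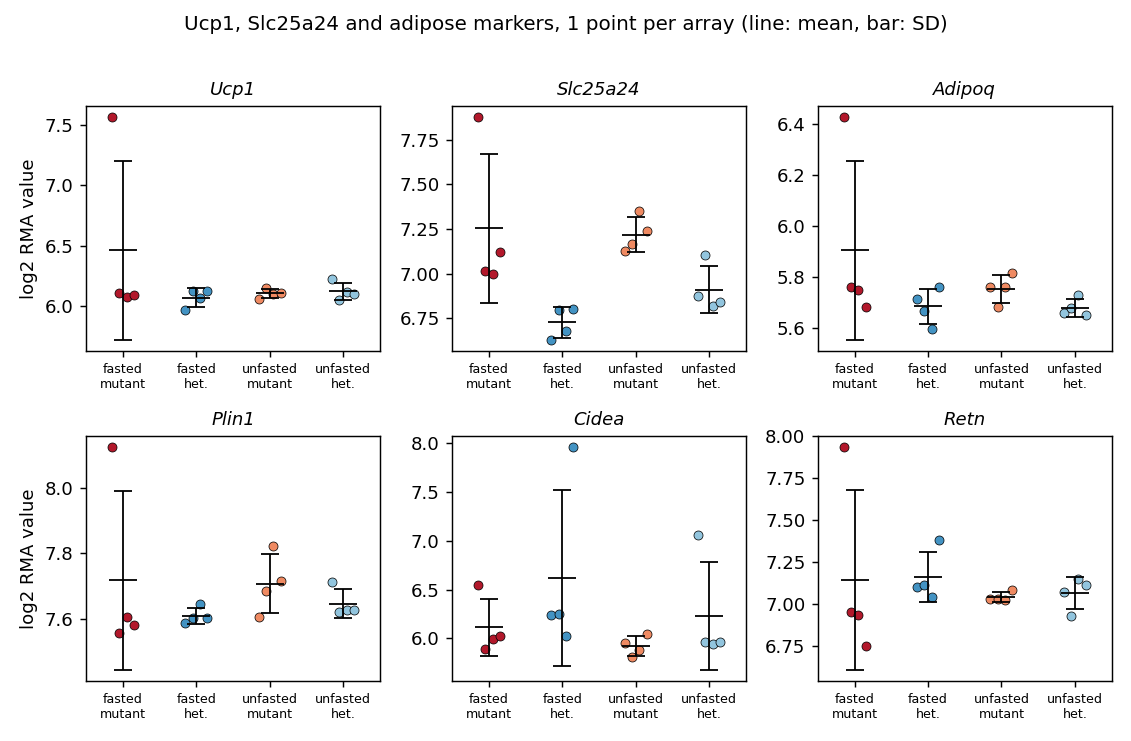
Log2 values on each array (points) with group mean (line) and SD (bar) for Ucp1, Slc25a24 and the adipose markers Adipoq, Plin1, Cidea and Retn in the 4 groups. Fasted mutant replicate 1 stands above all other arrays for Ucp1 (7.57), Slc25a24 (7.88), Adipoq (6.43), Plin1 (8.12) and Retn (7.94) but not for Cidea (6.54).

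Of the 9 amino acid carriers, 3 were called lower in fasted mutants and 2 in unfasted mutants, with none called higher. Among all genes 5.01% and 3.69% were called lower. The class was not uniform. In fasted mutants Slc25a22 differed by 0.36 ± 0.14 (limma, adjusted p = 0.11) and Slc25a12 by 0.24 ± 0.10 (limma, adjusted p = 0.12). The median difference of the 9 was -0.12 in the fasted and -0.06 in the unfasted state. Slc25a2, an ornithine carrier, read 6.15, 6.26, 6.10 and 6.14 in fasted mutants, against 6.47, 6.49, 6.41 and 6.38 in fasted heterozygotes, and 6.21, 6.20, 6.30 and 6.41 in unfasted mutants, against 6.49, 6.58, 6.43 and 6.55 in unfasted heterozygotes. The genotypes did not overlap in either state. The difference was -0.27 ± 0.05 in the fasted state (limma, adjusted p = 0.0036) and -0.23 ± 0.05 in the unfasted state (limma, adjusted p = 0.013), at a dim level (24.28 percentile of all genes).

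Slc25a15, the ornithine-citrulline carrier of the urea cycle, read 11.03, 10.72, 10.75 and 11.28 in unfasted mutants, against 11.18, 11.21, 11.71 and 11.69 in unfasted heterozygotes (-0.50 ± 0.15, limma, adjusted p = 0.048). Replicate 4 of the unfasted mutants lay within the heterozygous range, and the call ended on leaving out any 1 of 12 arrays, all but fasted heterozygous replicate 3, unfasted mutant replicate 4 and unfasted heterozygous replicates 1 and 2 (highest adjusted p 0.16). In the fasted state it read 11.61, 11.41, 11.59 and 11.49 in mutants, against 11.52, 11.49, 11.98 and 11.63 in heterozygotes (-0.13 ± 0.15, adjusted p = 0.57). The glycine carrier Slc25a38, needed for haem synthesis, read 9.13, 9.34, 9.36 and 9.56 in fasted mutants, against 9.65, 9.64, 9.58 and 9.61 in fasted heterozygotes, and 9.43, 9.45, 9.15 and 9.35 in unfasted mutants, against 9.58, 9.72, 9.62 and 9.55 in unfasted heterozygotes. Its difference was -0.27 ± 0.08 in both states, with adjusted p = 0.045 in the fasted and 0.059 in the unfasted state (limma). Without fasted mutant replicate 1 the fasted value was -0.20 (adjusted p = 0.13) and the unfasted one was called. The fasted call also ended on leaving out any 1 of 9 further arrays, the exceptions being fasted mutant replicate 4, all 4 unfasted mutants and unfasted heterozygous replicate 2, and the unfasted difference was also called without fasted mutant replicate 4. The glutamate carrier Slc25a18 was called at -0.14 ± 0.04 in fasted mutants (limma, adjusted p = 0.024), a call that ended on leaving out fasted mutant replicate 4 or fasted heterozygous replicate 1 or 3 (highest adjusted p 0.071).

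The remaining genotype calls were single members. Slc25a11, the oxoglutarate-malate carrier of the malate-aspartate shuttle, read 11.28, 11.55, 11.61 and 11.47 in fasted mutants, against 11.04, 11.18, 11.35 and 11.15 in fasted heterozygotes (0.30 ± 0.08, limma, adjusted p = 0.024). The groups overlapped at 1 array each, and the call ended on leaving out fasted mutant replicate 2 or 3 or fasted heterozygous replicate 1, 2 or 4 (highest adjusted p 0.076). Slc25a46, an outer membrane protein with a role in mitochondrial dynamics, read 10.83, 10.85, 10.75 and 10.72 in fasted mutants, against 10.44, 10.59, 10.56 and 10.64 in fasted heterozygotes (0.23 ± 0.06, limma, adjusted p = 0.020). This call ended on leaving out fasted mutant replicate 1 or 2 or fasted heterozygous replicate 1 (highest adjusted p 0.066). Slc25a34, whose substrate is not established, read 7.93, 8.00, 7.73 and 7.87 in unfasted mutants, against 7.53, 7.61, 7.54 and 7.54 in unfasted heterozygotes (0.33 ± 0.07, limma, adjusted p = 0.0081). The 4 unfasted heterozygotes were the lowest of all 16 arrays.

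The genotype differences in the fasted and unfasted states rest on different arrays. Their tests, however, share 1 estimate of the spread per gene from all 16 arrays, so the calls are not independent. The share of all genes called in both states was not counted. Of the 7 members called in both, all 7 had the same sign: Slc25a33, Slc25a36, Slc25a39, Slc25a5, Slc25a27 and Ucp3 were higher and Slc25a2 lower in mutants. Groups of 4 arrays did not overlap for 16 members in the fasted state, where 23.7% of all genes did not, and for 13 members in the unfasted state, against 12% of all genes. Without the pair of arrays with acinar or adipocyte transcripts the counts were 12 and 10. Of the 14 fasted calls 11 remained. Those lost were Slc25a3, which differed by 0.13 without the pair and by 0.14 with all arrays (limma, adjusted p = 0.095 without the pair), Slc25a38 (-0.20, against -0.27 with all arrays, adjusted p = 0.11) and Slc25a46 (0.21, against 0.23, adjusted p = 0.052), and Slc25a40 was gained (0.35, against 0.25, adjusted p = 0.019). Of the 10 unfasted calls 6 remained. Those lost were Slc25a15 (-0.53, against -0.50 with all arrays, limma, adjusted p = 0.060), Slc25a33 (0.61, against 0.77, adjusted p = 0.083), Slc25a5 (0.16, against 0.19, adjusted p = 0.077) and Ucp3 (0.34, against 0.36, adjusted p = 0.054). Those gained were Slc25a25 (-0.81, against -0.72, adjusted p = 0.012), Slc25a4 (0.64, against 0.56, adjusted p = 0.011), Slc25a24 (0.34, against 0.31, adjusted p = 0.011) and Slc25a38 (-0.30, against -0.27, adjusted p = 0.028). None of these members changed sign between the 2 fits, and Slc25a5, Slc25a33 and Ucp3, named above as called in both states, were then called in the fasted state only. In a fit of only the 8 arrays compared, 13 and 7 were called, without Slc25a3, Slc25a24 and Slc25a38 in the fasted and without Slc25a2, Slc25a5, Slc25a15 and Slc25a33 in the unfasted state. Calls gained in that fit included Slc25a30 in the fasted state (0.51, limma, adjusted p = 0.014) and Slc25a25 in the unfasted state (-0.72, limma, adjusted p = 0.044).

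**Figure D4:**
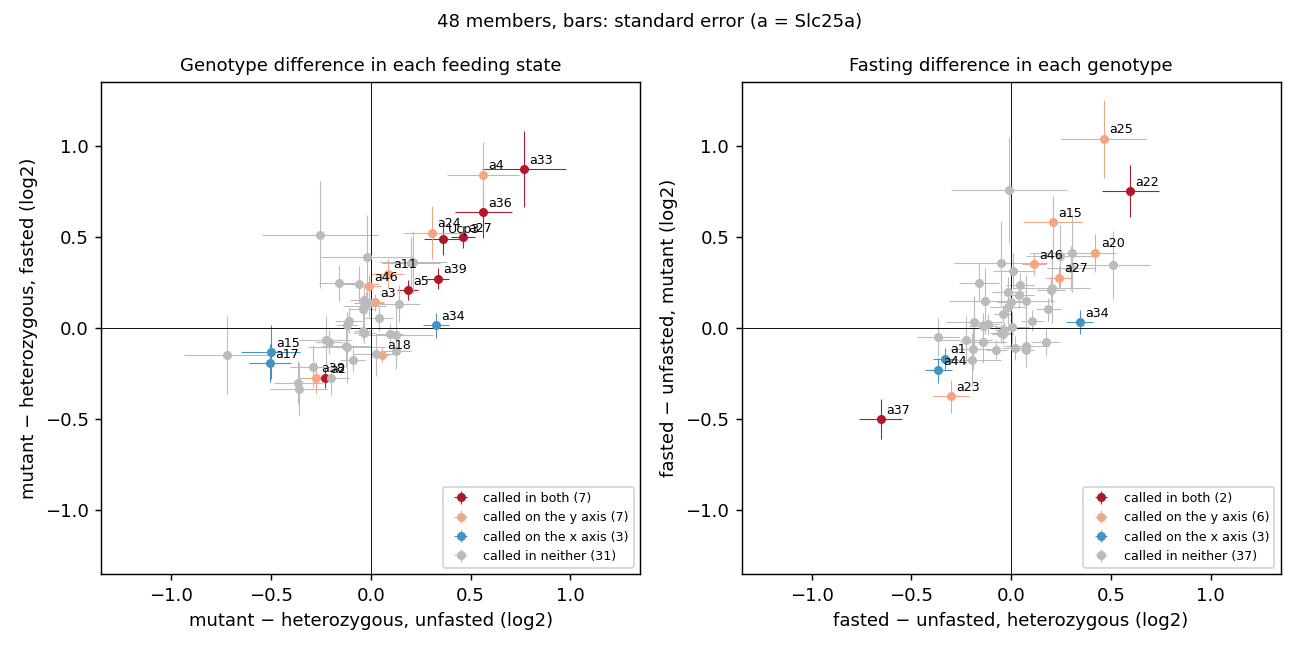
Log2 differences of the 48 members with standard errors. Left, mutant minus heterozygous in the unfasted state (x) and in the fasted state (y), contrasts whose group means share no array, with the 7 members called in both in red. Right, fasted minus unfasted in heterozygotes (x) and in mutants (y), with the 2 members called in both in red.

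Fasting was accompanied in both genotypes by more of the glutamate carrier Slc25a22 and less of the mitochondrial iron importer Slc25a37 (mitoferrin). The transporter with the largest fasting difference, however, was the ATP-Mg/phosphate carrier Slc25a25 in mutants. It read 11.40, 10.43, 10.38 and 10.69 in fasted mutants, against 9.96, 9.57, 9.58 and 9.62 in unfasted mutants, without overlap (1.04 ± 0.21, 2.06-fold; limma, adjusted p = 0.018). In heterozygotes it read 10.73, 10.61, 11.31 and 10.82 after the fast and 9.93, 10.43, 10.49 and 10.76 unfasted (0.46 ± 0.21, adjusted p = 0.40). The unfasted mutants were the low group: their difference from unfasted heterozygotes was -0.72 ± 0.21 (1.65-fold lower; limma, adjusted p = 0.0503). That difference was called without unfasted mutant replicate 1, unfasted heterozygous replicate 1, fasted mutant replicate 1 or 3 or fasted heterozygous replicate 3 (adjusted p down to 0.015). In fasted mutants against fasted heterozygotes it was -0.15 ± 0.21 (adjusted p = 0.67). The fasting call in mutants ended on leaving out unfasted mutant replicate 2 (1.003, adjusted p = 0.051) and held without fasted mutant replicate 1 (0.82, adjusted p = 0.029). In a fit of only the 8 mutant arrays, where 0.166% of all genes were called, 0 of the 8 members called for fasting in mutants passed (adjusted p 0.063 to 0.16).

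Slc25a22 read 11.02, 10.55, 10.38 and 10.25 in fasted mutants, against 9.85, 9.52, 9.81 and 10.02 in unfasted mutants, and 10.19, 10.03, 10.45 and 10.11 in fasted heterozygotes, against 9.70, 9.68, 9.53 and 9.49 in unfasted heterozygotes. Fasted and unfasted arrays did not overlap in either genotype. The difference was 0.75 ± 0.14 in mutants (1.68-fold; limma, adjusted p = 0.013) and 0.60 ± 0.14 in heterozygotes (1.51-fold; limma, adjusted p = 0.048). The heterozygous call ended on leaving out any 1 of 12 arrays, all but fasted mutant replicates 1 and 4 and unfasted mutant replicates 2 and 4 (highest adjusted p 0.15).

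Slc25a37 read 9.25, 9.33, 9.30 and 9.47 in fasted mutants, against 9.70, 9.82, 9.86 and 9.97 in unfasted mutants, and 9.37, 9.34, 8.88 and 9.28 in fasted heterozygotes, against 10.02, 10.002, 9.67 and 9.78 in unfasted heterozygotes. All 8 fasted arrays lay below all 8 unfasted ones. The difference was -0.50 ± 0.11 in mutants (1.41-fold lower; limma, adjusted p = 0.022) and -0.65 ± 0.11 in heterozygotes (1.57-fold lower; limma, adjusted p = 0.0074). The mutant call ended on leaving out fasted mutant replicate 2 or 3 or unfasted mutant replicate 2 or 4 (highest adjusted p 0.064). The other mitoferrin, Slc25a28, differed by 0.24 ± 0.07 in mutants (adjusted p = 0.071) and 0.05 ± 0.07 in heterozygotes (adjusted p = 0.90).

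**Figure D5:**
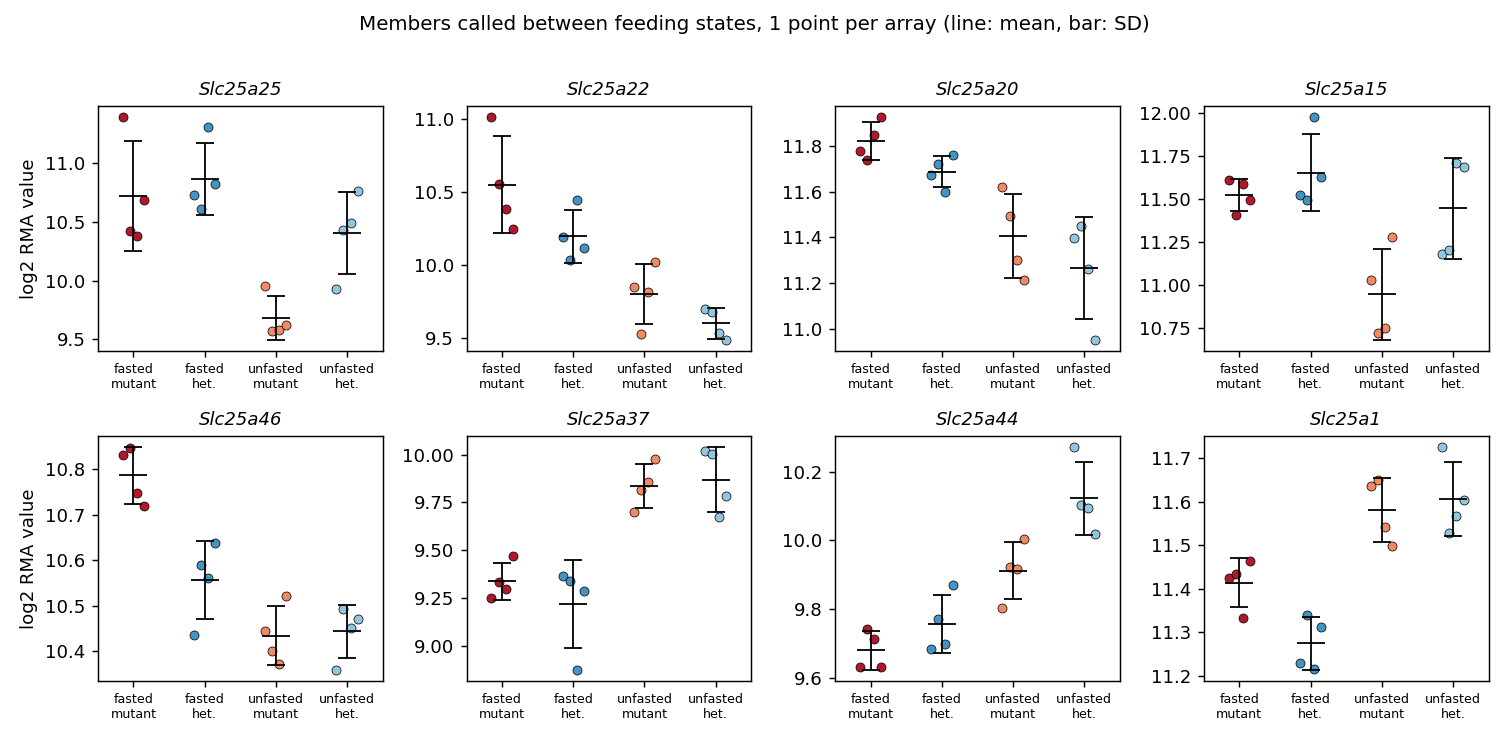
Log2 values of 8 members on each array (points) with the group mean (line) and SD (bar), for fasted mutants, fasted heterozygotes, unfasted mutants and unfasted heterozygotes. Slc25a22 lies higher and Slc25a37 lower on fasted arrays of both genotypes, while Slc25a25 is lowest in unfasted mutants (9.57 to 9.96).

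Slc25a20, the carnitine-acylcarnitine carrier that admits long-chain fatty acids for oxidation, read 11.78, 11.74, 11.85 and 11.93 in fasted mutants, against 11.62, 11.50, 11.30 and 11.22 in unfasted mutants, and 11.67, 11.72, 11.60 and 11.76 in fasted heterozygotes, against 11.40, 11.45, 11.26 and 10.95 in unfasted heterozygotes. The feeding states did not overlap in either genotype. The difference was 0.41 ± 0.10 in mutants (1.33-fold; limma, adjusted p = 0.038) and 0.42 ± 0.10 in heterozygotes (1.34-fold; limma, adjusted p = 0.051). The mutant call ended on leaving out any 1 of 11 arrays, all but fasted heterozygous replicate 3, unfasted mutant replicate 1 and unfasted heterozygous replicates 1, 2 and 4 (highest adjusted p 0.10). The heterozygous difference passed without unfasted mutant replicate 1 or 4 or unfasted heterozygous replicate 1 or 2 (adjusted p down to 0.037).

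Slc25a15, lower in unfasted mutants as given above, was higher in mutants after the fast (0.58 ± 0.15, 1.496-fold; limma, adjusted p = 0.042), and its fasted and unfasted mutants did not overlap. This call ended on leaving out any 1 of 9 arrays: the 4 fasted mutants, unfasted mutant replicates 2 and 3 and fasted heterozygous replicates 1, 2 and 4 (highest adjusted p 0.11). In heterozygotes the difference was 0.21 ± 0.15 (adjusted p = 0.67). Slc25a46 was higher after the fast in mutants (0.35 ± 0.06, limma, adjusted p = 0.0092), where unfasted mutants read 10.44, 10.40, 10.37 and 10.52. Its difference in heterozygotes was 0.11 ± 0.06 (adjusted p = 0.50). Slc25a27 was also higher in fasted mutants (0.28 ± 0.06, limma, adjusted p = 0.024), a call that ended on leaving out fasted mutant replicate 2 or 3 or unfasted mutant replicate 4 (highest adjusted p 0.069). In heterozygotes it differed by 0.24 ± 0.06 (adjusted p = 0.070), and this passed without unfasted heterozygous replicate 1 (adjusted p = 0.045).

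Lower after the fast in mutants was Slc25a23, an ATP-Mg/phosphate carrier, with 11.11, 11.07, 11.45 and 11.35 in fasted mutants, against 11.43, 11.69, 11.69 and 11.67 in unfasted mutants (-0.37 ± 0.09, limma, adjusted p = 0.037). Unfasted mutant replicate 1 lay within the fasted range. The call ended on leaving out fasted mutant replicate 1 or 2, unfasted mutant replicate 2, 3 or 4 or fasted heterozygous replicate 4 (highest adjusted p 0.12). In heterozygotes the difference was -0.30 ± 0.09 (adjusted p = 0.13).

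In heterozygotes the fast was accompanied by lower Slc25a1 and Slc25a44 and higher Slc25a34. Slc25a1, the citrate carrier that supplies carbon for fatty acid synthesis, read 11.23, 11.34, 11.22 and 11.31 in fasted heterozygotes, against 11.73, 11.53, 11.57 and 11.60 in unfasted heterozygotes (-0.33 ± 0.06, limma, adjusted p = 0.0095). In mutants it read 11.43, 11.43, 11.33 and 11.46 after the fast and 11.64, 11.65, 11.54 and 11.50 unfasted (-0.17 ± 0.06, adjusted p = 0.11), with no overlap in either genotype. Slc25a44, which imports branched-chain amino acids, some of which are broken down through methylmalonyl-CoA, read 9.68, 9.77, 9.70 and 9.87 in fasted heterozygotes, against 10.27, 10.10, 10.09 and 10.02 in unfasted heterozygotes (-0.37 ± 0.07, limma, adjusted p = 0.013). In mutants it read 9.63, 9.74, 9.71 and 9.63 after the fast and 9.80, 9.92, 9.92 and 10.004 unfasted (-0.23 ± 0.07, adjusted p = 0.069), again without overlap, and this passed without unfasted mutant replicate 1 (adjusted p = 0.031). Slc25a34 read 7.85, 8.00, 7.95 and 7.79 in fasted heterozygotes, above all 4 unfasted ones (0.34 ± 0.07, limma, adjusted p = 0.016), a call that ended on leaving out fasted heterozygous replicate 2 or 3 or unfasted heterozygous replicate 4 (highest adjusted p 0.056). In mutants it differed by 0.03 ± 0.07 (adjusted p = 0.79).

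Whether fasting differed between the genotypes was tested as an interaction, and 0 of 48 members were called (limma), where 0.01% of all genes, 2 genes, were. The interaction was positive for 37 members and negative for 11, with a median of 0.114, against -0.0138 for all genes. The share of all genes with a positive sign was not counted. At an unadjusted p under 0.05 there were 7 members, where 11% of all genes were. These 7 were Slc25a18 (-0.20 ± 0.06, adjusted p = 0.32), Slc25a34 (-0.31 ± 0.09, adjusted p = 0.35), Slc25a40 (0.41 ± 0.14, adjusted p = 0.38), Slc25a46 (0.24 ± 0.08, adjusted p = 0.39), Slc25a29 (-0.25 ± 0.10, adjusted p = 0.42), Slc25a12 (0.30 ± 0.14, adjusted p = 0.45) and Slc25a17 (0.32 ± 0.15, adjusted p = 0.45). The interaction was 0.58 ± 0.30 for Slc25a25 (adjusted p = 0.48) and 0.77 ± 0.41 for Slc25a30 (adjusted p = 0.49), which were not among the 7. The group means of the 2 fasting contrasts share no arrays, though their tests share the estimate of the spread. Slc25a22 and Slc25a37 were the 2 members called in both fasting contrasts, with the same sign. Groups of 4 did not overlap for 12 members in mutants, against 10% of all genes, and for 11 in heterozygotes, against 10.5%. Both contrasts share arrays with the genotype contrasts. Without the pair of arrays with foreign transcripts 11 members were called for fasting in mutants, 7 of them among the 8 above. Slc25a15 was lost (0.58 in both fits, limma, adjusted p = 0.051), and Slc25a11 (0.29, against 0.20 with all arrays, adjusted p = 0.040), Slc25a26 (0.28, against 0.18, adjusted p = 0.027), Slc25a40 (0.39, against 0.25, adjusted p = 0.021) and Slc25a44 (-0.25, against -0.23, adjusted p = 0.049) were gained. In heterozygotes 6 were called, all 5 above and Slc25a20 (0.42 in both fits, limma, adjusted p = 0.043).

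The 24 members called in no contrast differed by -0.36 to 0.21 in the unfasted and by -0.34 to 0.51 in the fasted genotype contrast, and by -0.17 to 0.76 and -0.23 to 0.51 for fasting in mutants and heterozygotes. They include both aspartate-glutamate carriers, Slc25a12 and Slc25a13, which serve the malate-aspartate shuttle and, for Slc25a13, the urea cycle. Slc25a12 read 9.67, 9.64, 9.87 and 9.62 in fasted mutants, against 9.15, 9.30, 9.54 and 9.55 in unfasted mutants (0.31 ± 0.10, adjusted p = 0.089), and Slc25a13 read 11.77, 11.72, 11.87 and 11.98 in fasted mutants, against 11.67, 11.61, 11.64 and 11.57 in unfasted mutants (0.21 ± 0.07, adjusted p = 0.093). Neither pair of groups overlapped, though neither passed the test. The liver-enriched Slc25a47 read 12.40, 12.28, 12.53 and 12.38 in fasted heterozygotes, against 12.31, 11.81, 11.83 and 11.60 in unfasted heterozygotes (0.51 ± 0.19, adjusted p = 0.23). The dicarboxylate carrier Slc25a10, the uncoupling protein relative Slc25a14, the S-adenosylmethionine carrier Slc25a26 and the coenzyme A carrier Slc25a42 were also among them.

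The enzymes and channels around the carriers were counted as well. For these lists the shares of all genes called were 13.6% and 7.94% between genotypes in the fasted and unfasted state. For fasting they were 3.35% in mutants and 1.57% in heterozygotes. Of 8 measured genes of fatty acid oxidation, 5 of them carnitine shuttle genes (Cpt1a, Cpt2, Crat, Crot and Slc22a5) and 3 acyl-CoA dehydrogenases of beta-oxidation (Acadvl, Acadl and Acadm), 5 rose in fasted heterozygotes and 2 in fasted mutants, with none lower. They were Cpt1a, Cpt2, Crat, Slc22a5 and the dehydrogenase Acadm in heterozygotes, and Cpt1a and Crot in mutants. The median fasting difference of the 8 was 0.361 in heterozygotes and 0.335 in mutants, and 0 of the 8 were called in the interaction. In mutants Slc22a5 (0.78, limma, adjusted p = 0.051), Cpt2 (0.23, adjusted p = 0.066), Crat (0.45, adjusted p = 0.11) and Acadm (0.21, adjusted p = 0.11) did not pass. Cpt1a, which makes the acylcarnitines that Slc25a20 carries, differed by 0.46 ± 0.10 in mutants (limma, adjusted p = 0.023) and 0.52 ± 0.10 in heterozygotes (limma, adjusted p = 0.015). The mutant call ended on leaving out fasted mutant replicate 3 or unfasted mutant replicate 4 (highest adjusted p 0.059) and the heterozygous call on leaving out fasted heterozygous replicate 3 (adjusted p = 0.054). Slc22a5, the plasma membrane carnitine importer, was higher by 0.996 ± 0.21 in fasted heterozygotes (limma, adjusted p = 0.022), a call ending on leaving out any 1 of the 4 fasted or of unfasted replicates 3 and 4 (highest adjusted p 0.074). Between genotypes 1 of the 8 was higher in mutants in each state, namely the dehydrogenase Acadl (0.34 ± 0.08 fasted, adjusted p = 0.010, and 0.44 ± 0.08 unfasted, adjusted p = 0.0037, limma), and 0 of the 5 carnitine shuttle genes passed.

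A list of 11 measured enzymes held those of the malate-aspartate, citrate and glycerol phosphate shuttles and others that use the same metabolites, among them the carboxykinases Pck1 and Pck2, which belong to none of these shuttles. Of the 11, Mdh2, Gpd2, Cs and Pck2 were higher in fasted mutants than in fasted heterozygotes (4). In the unfasted state Mdh2 and Pck2 were higher and Gpd1 and Acly lower in mutants (2 and 2). Gpd2, the mitochondrial glycerol phosphate dehydrogenase, was higher by 0.70 ± 0.11 in fasted mutants (limma, adjusted p = 0.0013), and Mdh2, the mitochondrial malate dehydrogenase, by 0.50 ± 0.09 (limma, adjusted p = 0.0027). Acly, which cleaves the citrate that Slc25a1 exports, was lower after the fast, with a difference of -0.72 ± 0.16 in mutants (limma, adjusted p = 0.023) and -1.38 ± 0.16 in heterozygotes (limma, adjusted p = 0.00056). The mutant call of Acly ended on leaving out fasted mutant replicate 2 or 3 or unfasted mutant replicate 2 (highest adjusted p 0.069). For fasting, Got1, Gpd1 and Pck1 were higher and Acly lower in mutants (3 and 1), and Pck1 was higher and Acly and Me1 lower in heterozygotes (1 and 2). Pck1, the gluconeogenic carboxykinase, was higher in both (0.55 ± 0.10, adjusted p = 0.011, and 0.60 ± 0.10, adjusted p = 0.0077, limma).

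Of 11 measured enzymes of ornithine, glutamate and urea metabolism, 1 was higher and 4 lower in fasted mutants, and 1 was higher and 1 lower in unfasted mutants. Otc, which uses the ornithine that Slc25a15 imports, was lower in fasted mutants (-1.21 ± 0.25, limma, adjusted p = 0.0063), as was Prodh, the first enzyme of proline breakdown (-0.94 ± 0.19, limma, adjusted p = 0.0054). In unfasted mutants Otc differed by -0.83 ± 0.25 (limma, adjusted p = 0.055) and Prodh by -0.23 ± 0.19 (limma, adjusted p = 0.56). Aldh18a1, which makes proline and ornithine precursors from glutamate, was higher in unfasted mutants (1.41 ± 0.31, limma, adjusted p = 0.012) and in fasted ones (1.04 ± 0.31, limma, adjusted p = 0.037), the fasted call ending on leaving out any 1 of 7 arrays, all fasted ones but fasted mutant replicate 3 (highest adjusted p 0.11). Arg1, the last enzyme of the urea cycle, was higher in fasted than in unfasted mutants (0.55 ± 0.09, limma, adjusted p = 0.0091). It was the enzyme called lower in unfasted mutants than in unfasted heterozygotes (-0.37 ± 0.09, limma, adjusted p = 0.022). That call ended on leaving out any 1 of 5 arrays (highest adjusted p 0.075).

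Other mitochondrial transport genes formed the last list. Of 20 measured, 1 was higher and 3 lower in fasted mutants and 2 were lower in unfasted mutants. Those lower were Sfxn5, Abcb10 and Mtch1 in the fasted and Sfxn5 and Abcb10 in the unfasted state. Among all genes 8.62% were called higher and 5.01% lower in fasted mutants, and 3.69% lower in unfasted mutants. Sfxn5 differed by -0.49 ± 0.13 in the fasted state (limma, adjusted p = 0.025) and -0.51 ± 0.13 in the unfasted state (limma, adjusted p = 0.029). These calls ended on leaving out any 1 of 5 and any 1 of 7 arrays (highest adjusted p 0.082 and 0.074). Mtch1 differed by -0.26 ± 0.08 in the fasted state (limma, adjusted p = 0.045). That call ended on leaving out any 1 of 9 arrays (highest adjusted p 0.13). Abcb10, an inner membrane transporter needed for haem synthesis, was lower in mutants, with a difference of -0.34 ± 0.09 in the fasted state (limma, adjusted p = 0.016, ending on leaving out fasted heterozygous replicate 4, adjusted p = 0.054) and -0.50 ± 0.09 in the unfasted state (limma, adjusted p = 0.0030). The outer membrane channel Vdac2 was higher by 0.45 ± 0.09 in fasted mutants (limma, adjusted p = 0.0046). For fasting, 0 of the 20 were called in mutants and 1, Abcb10, was lower in heterozygotes (-0.37 ± 0.09, adjusted p = 0.042), a call that ended on leaving out any 1 of 10 arrays, all but fasted mutant replicates 1 and 4, unfasted mutant replicates 1, 3 and 4 and unfasted heterozygous replicate 1 (highest adjusted p 0.14).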

How the data were processed

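Liver RNA (300 ng labelled per array, per the labels' protocols) was measured in 4 groups of 4 mice. The deposited log2 values were made by the authors with Affymetrix Expression Console and RMA, a background correction, quantile normalization and probe set summary, per the submitters' processing notes. For versions, build and filters: not given in the sources used here. The log2 scale was read from the values (3.80 to 14.33, array medians 7.33 to 7.40). Of 35556 probe sets, 21789 had 1 symbol in the platform annotation, updated through RefSeq (GRCm38.p6). No detection calls were given, no filter was applied, and the number of arrays limits the precision.

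Group means were compared with limma 3.58.1 in R 4.3.3 (all 16 arrays, eBayes with an intensity trend, two-sided, Benjamini-Hochberg over 19938 genes, threshold 0.05). The labels give no batch. Arrays with the same replicate number had correlations of deviations of -0.12 to 0.252. Arrays with unlike numbers were not correlated, so whether replicate numbers pair the samples was not settled. Every member could be named. Those called with the largest changes are given on every array, and up to 4 called genes per neighbouring list. Partner and marker lists, and members themselves, were chosen with earlier results of these data known. Alternatives were a replicate block, only the arrays compared, array weights, 2 scalings, 2 variance settings, mean over probe sets, bright genes only, annotated symbols, threshold 0.01 and leaving out each array. Leaving out the acinar and adipose arrays together was chosen after seeing the data. Fits were tested on simulated data.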

Additional observations from a re-analysis of the deposited data

Results flagged for a closer look

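In 14 of 192 groups of 4 arrays (48 members in 4 groups) 1 array lay far from the other 3 by Dixon's ratio (above its critical value for 4 samples), where chance gives about 1 in 20, or 9.6. Fasted mutant replicate 1 held 3 of them, as the highest: Ucp1 at 7.57 (others 6.07 to 6.11), Slc25a24 at 7.88 (6.997 to 7.12) and Slc25a4 at 8.95 (8.09 to 8.15). Unfasted mutant replicate 1 held 3: Slc25a25 highest at 9.96 (9.57 to 9.62), Slc25a23 lowest at 11.43 (11.67 to 11.69) and Slc25a53 lowest at 5.99 (6.20 to 6.23). These are the arrays with adipocyte and with pancreatic acinar transcripts. Among other mutants, Slc25a33 was lowest at 8.89 on fasted replicate 3 (9.48 to 9.51), Slc25a42 lowest at 10.02 on fasted replicate 2 (10.36 to 10.40) and Slc25a4 highest at 8.72 on unfasted replicate 3 (7.95 to 8.07).

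Among heterozygotes, Slc25a17 was highest at 10.88 on fasted replicate 4 (10.50 to 10.56) and Slc25a37 lowest at 8.88 on fasted replicate 3 (9.28 to 9.37). In the unfasted group Slc25a32 was highest at 10.13 on replicate 1 (9.48 to 9.57), Slc25a31 at 5.60 on replicate 2 (5.24 to 5.25) and Slc25a43 at 7.84 on replicate 4 (7.72 to 7.74).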

How the results depend on the processing

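Of 52 member differences followed, 37 of them called, none changed sign under the other settings tried, apart from leaving out arrays. At the threshold of 0.01 the counts of called members were 6 (fasted) and 4 (unfasted) between genotypes and 1 (mutants) and 2 (heterozygotes) for fasting. With only the arrays compared, fasting in mutants gave 0, against 8, and array weights gave 10 for fasting in heterozygotes, against 5. The cause was not tested. Apart from the fit of the mutant arrays given above, these counts are not set against the share of all genes called under the same setting. A change in count is therefore not shown to be particular to the members. Leaving out 1 array in turn gave 8 to 15, 5 to 13, 3 to 12 and 3 to 7 in the same order, and 0 to 0 for the interaction. The fasting difference of Ucp1 in mutants ran from -0.0128 (without fasted mutant replicate 1) to 0.486 on leaving out 1 array, and was -0.0278 without both arrays with foreign transcripts. A replicate block gave 14, 12, 8 and 5 and 0 for the interaction. Among the 52 differences followed, it ended the fasted Slc25a38 call and added Slc25a45 in the unfasted state. Whether replicate numbers pair the samples was not settled. Median centring changed the split in unfasted mutants to 6 higher and 7 lower (from 7 and 3) and for fasting in heterozygotes to 1 and 3 (from 2 and 3). A second quantile normalization gave 5 and 3 for fasting in mutants (from 6 and 2).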
